A study of Mus musculus with 8 samples.

Results

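The subject is the respiratory chain and ATP synthase of T cells, followed as the transcripts of its subunits from both genomes. Members were the genes whose symbols begin with Nduf, Uqcr, Cox4 to Cox8 or Atp5, the Sdha to Sdhd genes and the protein-coding genes of the mitochondrial genome. A member had to reach 10 on the authors' normalized scale in 2 or more of the 8 libraries. The name pattern found 90 rows, and 13 mitochondrial genes listed under names without a prefix (ND1, COX1, CYTB) were found through their gene identifiers. Of these 103 rows, 98 were tested, among 13358 tested genes of 18438 rows in all. They were 13 mitochondrial genes, 76 nuclear subunit genes, 7 complex I assembly factors and 2 gene copies (Ndufa12-ps and Ndufb4c). The 5 rows below the minimum were Cox4i2, Cox8b, Ndufa4l2, Ndufb11b and Atp5c1-ps. Just inside the minimum, Cox6b2 and Cox7a1 had values between 3.94 and 25.5, and just outside it Cox8b reached at most 7.06 and Cox4i2 at most 4.91. Ndufs8, Ndufa11, Cox8a and Cox7a2l were not analysed here.

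Poly(A) RNA was taken from splenic T cells of C57BL/6 mice on day 7 of EAE (experimental autoimmune encephalomyelitis), a mouse model of multiple sclerosis set off by immunisation with a myelin peptide. Every group shared that disease state, that day and that tissue. The groups, of 2 libraries each, were regulatory T cells with the genotype IRE1a-/- (Treg KO), wild-type regulatory T cells (Treg WT), effector T cells with the genotype IRE1a-/- (Teff KO) and wild-type effector T cells (Teff WT). Treg were sorted as CD4+ CD25hi YFP+ cells and Teff as CD4+ CD25- YFP- cells. The labels used here give neither what drives YFP nor in which cells IRE1a is deleted, and they give no age. Whether the 2 replicates are separate mice is not stated, so each p-value reflects the scatter of these replicates, which may be technical. IRE1a, encoded by Ern1, is a stress sensor of the endoplasmic reticulum.

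The respiratory chain of the inner mitochondrial membrane passes electrons from NADH (complex I) and succinate (complex II) through complex III to oxygen at complex IV. Complexes I, III and IV pump protons, and complex V, the ATP synthase, uses the returning protons to make ATP. Complexes I, III, IV and V each join subunits from the nucleus with core subunits made inside mitochondria, whereas complex II is wholly nuclear. Treg are known to lean on mitochondrial respiration more than glycolytic effector cells do.

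Library totals of the authors' normalized values lay between 17504097 and 18751258. Ern1 had values of 326 and 359 in Treg KO against 377 and 399 in Treg WT, and of 458 and 453 in Teff KO against 559 and 616 in Teff WT. These are the authors' normalized values, taken over the whole gene. Foxp3, which defines Treg, had 111 and 117 in Treg KO, 89.1 and 92.2 in Treg WT, 2.06 and 8.29 in Teff KO and 0 in both Teff WT libraries. Each of the 9 marker lists for T cells, other blood cells and cycling cells was detected. The T cell markers summed to between 39120 and 48520 in every library.

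The mitochondrial genes took 5.22% and 5.47% of the library total in Treg KO, 5.41% and 5.59% in Treg WT, 5.90% and 6.08% in Teff KO and 6.11% and 7.34% in Teff WT. All 4 Treg libraries were therefore below all 4 Teff libraries. The 76 nuclear subunit genes together took 0.481% and 0.484% in Treg KO, 0.513% and 0.508% in Treg WT, 0.520% and 0.516% in Teff KO and 0.526% and 0.533% in Teff WT. Here the 4 groups did not overlap, and Treg KO was lowest. The summed mitochondrial value was 11.1 ± 0.34 times the summed nuclear value in Treg KO, 10.8 ± 0.31 times in Treg WT, 11.6 ± 0.30 times in Teff KO and 12.7 ± 1.53 times in Teff WT (SD, n = 2 libraries each). In WT the Treg libraries lay below the Teff libraries in that ratio, and in KO the groups all but touched, with 11.32 in the higher Treg KO library and 11.34 in the lower Teff KO library. With medians over genes in place of sums that order turned round, and the log2 ratio was higher in Treg than in Teff by 0.13 in KO and 0.054 in WT. In Teff WT, replicate 2 stood apart at 13.8, against 11.6 in replicate 1. These sums are descriptions with no test. In these bulk samples, fewer cells of a type and less RNA per cell cannot be told apart.

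**Figure D1:**
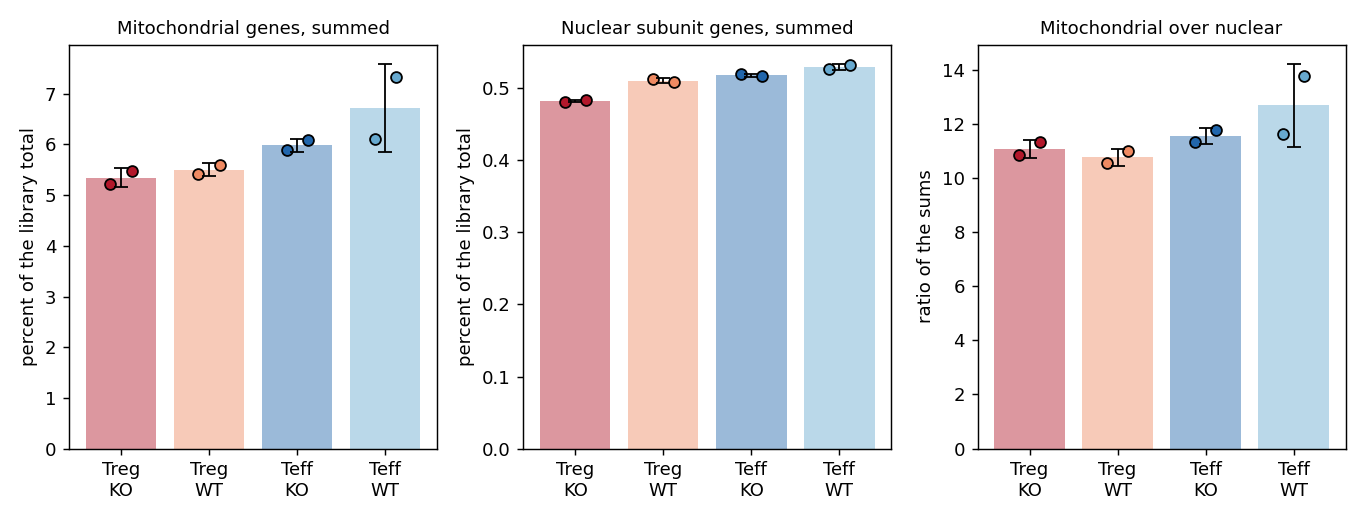
Summed values of the 13 mitochondrial genes (left) and the 76 nuclear subunit genes (middle), in percent of the library total, and the ratio of the sums (right), by group. Bars are group means, points are the 2 libraries and error bars are SD; nuclear subunits are lowest in Treg KO, at 0.481% and 0.484%.

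Per kilobase of transcript, the 13 mitochondrial genes had a median of 65210 over all libraries and the 76 nuclear subunit genes a median of 1027. Among nuclear subunits, the median per kilobase was 664 for the 35 of complex I, 805 for the 4 of complex II, 1390 for the 8 of complex III, 1680 for the 13 of complex IV and 1937 for the 16 of complex V. The highest nuclear subunit per kilobase was Atp5b, the catalytic beta subunit of the ATP synthase, at 5225, followed by Uqcrh, the hinge protein of complex III, at 4508, and Cox4i1, the ubiquitous isoform of subunit 4 of complex IV, at 4081. The 7 complex I assembly factors, which help build the complex and are not part of it, had a median of 127 per kilobase. Isoforms known from heart and skeletal muscle were low: Cox6a2 had 65.8 per kilobase against 3437 for the ubiquitous Cox6a1, and Cox7a1 had 32.6 against 1041 for Cox7a2. The testis isoform Cox6b2 had 28.1 per kilobase against 3599 for Cox6b1.

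The IRE1a-/- genotype was first compared with wild type, within Treg and within Teff. The mitochondrial gene ND3, a core membrane subunit of complex I (mt-Nd3, ENSMUSG00000064360, chrM:9459-9806 on the plus strand, GRCm38), was lower in KO cells of both types. It had 239 and 179 in Treg KO against 799 and 665 in Treg WT. It had 119 and 80.3 in Teff KO against 723 and 1328 in Teff WT. The KO and WT libraries did not overlap in either cell type. The log2 fold change, KO over WT on the log2(value + 1) scale, was -1.81 in Treg (SE 0.32, limma adjusted p = 0.047) and -3.31 in Teff (SE 0.32, limma adjusted p = 0.0028). The authors' deposited table gave ND3 at -1.81 in Treg (adjusted p = 8.1e-07) and -3.37 in Teff (adjusted p = 1.6e-23). In Treg the call was lost in 8 of 18 alternative analyses, where the adjusted p reached 0.24, while in Teff it held in all 18.

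ND3 was the only one of 98 members called in Treg, where 1.45% of all tested genes were called in either direction and 0.779% were lower. In Teff 2 of 98 members were called, ND3 and the copy Ndufa12-ps, both lower, where 6.92% of all tested genes were called and 5.08% were lower. The authors' deposited table called ND3 alone in Treg, against 3.28% of genes with an adjusted p. In Teff that table called ND3, Ndufa12-ps and ND5, all lower, against 8.82%. The share of members called was thus near or below that of all genes in both cell types.

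ND3 stood far below its neighbours on the mitochondrial genome. Per kilobase it averaged 1484, whereas the other 12 mitochondrial genes lay between 31970 and 229400. ND3 came to 0.546% and 0.283% of COX3, the gene just before it on the same strand, in Treg KO against 1.36% and 0.965% in Treg WT. In Teff KO it came to 0.146% and 0.152% of COX3 against 1.30% and 1.06% in Teff WT. ND4L, the gene just after it, had 19715 and 18871 in Treg KO against 19471 and 18312 in Treg WT, and 17442 and 20543 in Teff KO against 20025 and 20561 in Teff WT. KO and WT libraries of ND4L overlapped in both cell types.

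The reads were single-end and 50 bases long, and the annotation holds a nuclear copy of ND3, the unprocessed pseudogene Gm28438 on chromosome 1. Of the 50-base windows of ND3, 98.0% also occur in transcripts of Gm28438. The copy has no row in the table used here. Over the 345 bases compared the sequences differ at 1 base, T3C, counted from 1 at the start of ND3. The first 60 bases of both are shown because they hold that base, in capitals, read 5′ to 3′ from the GENCODE transcripts (ND3 at chrM:9459-9518 on the plus strand, Gm28438 at chr1:24613060-24613119 on the minus strand, GRCm38).
ND3: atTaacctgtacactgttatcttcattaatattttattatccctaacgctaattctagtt
Gm28438: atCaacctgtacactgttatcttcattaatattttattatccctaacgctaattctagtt
The sources used here do not say how reads were divided between ND3 and this copy, and its part in the values of ND3 was not tested.

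**Figure D2:**
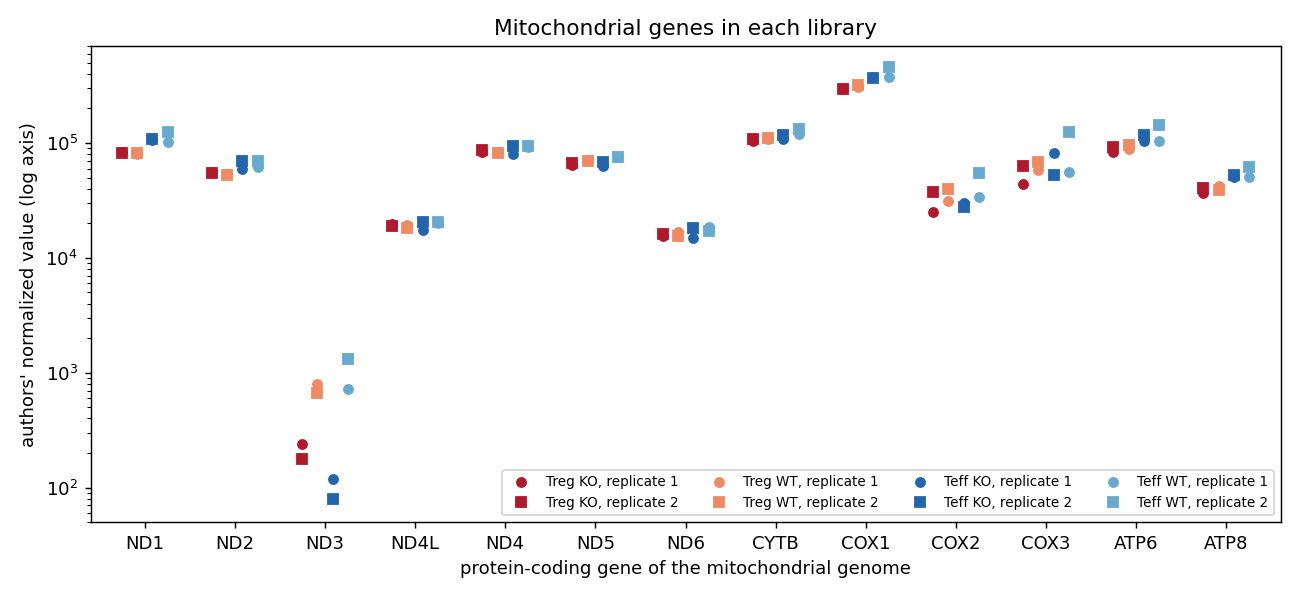
Authors' normalized values (log axis) of the 13 mitochondrial genes in each of the 8 libraries, coloured by group, with circles for replicate 1 and squares for replicate 2. ND3 lies at 80.3 to 239 in the KO libraries and at 665 to 1328 in the WT libraries, below every other mitochondrial gene.

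No mitochondrial gene other than ND3 was called between KO and WT in the limma fit. Among the other complex I genes of that genome, ND1 had 83732 and 82482 in Treg KO against 80923 and 82302 in Treg WT, and 106344 and 108877 in Teff KO against 102384 and 124158 in Teff WT. CYTB, the cytochrome b of complex III, had 104086 and 107347 in Treg KO against 108406 and 110097 in Treg WT, and 109457 and 118166 in Teff KO against 118780 and 132219 in Teff WT. CYTB was thus lower in KO without overlap in both cell types, by 0.05 and 0.14 on the log2 scale, and did not pass the test (limma adjusted p = 0.78 and 0.23). COX1, the catalytic subunit of complex IV, was also lower without overlap in both, with log2 fold changes of -0.08 in Treg and -0.16 in Teff (limma adjusted p = 0.70 and 0.30). ND5, of the proton-pumping arm of complex I, had 62703 and 68749 in Teff KO against 75454 and 75108 in Teff WT, a log2 fold change of -0.20 (SE 0.05, limma adjusted p = 0.068). In the authors' deposited table ND5 passed, at -0.20 with an adjusted p of 0.020. Over the 12 mitochondrial genes without ND3 the median log2 fold change was -0.06 in Treg, with 8 of 12 below 0, and -0.13 in Teff, with 12 of 12 below 0.

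Values of COX2, COX3 and ATP6 spread more between replicates than those of most other mitochondrial genes. COX3 had 81476 and 52902 in Teff KO against 55735 and 124724 in Teff WT. COX2 had 24946 and 37440 in Treg KO against 31325 and 39438 in Treg WT. These 3 genes and ND4L share between 98.8% and 100% of their 50-base windows with transcripts of other genes. ND4 shares 62.2% and COX1 51.1%, and the other 6 apart from ND3 share under 10%. Over those 6 (ND1, ND2, ND5, ND6, CYTB and ATP8) the median log2 fold change was -0.04 in Treg and -0.12 in Teff. For ATP6, the proton channel subunit of complex V, the table lists a copy, Gm10925, with 67635 and 67311 in Treg KO against 70139 and 59115 in Treg WT. Gene and copy together had 151273 and 158838 in Treg KO against 158887 and 154652 in Treg WT, and 204812 and 203561 in Teff KO against 199544 and 260016 in Teff WT.

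Nuclear subunits of the chain were slightly lower in Treg KO than in Treg WT, and none passed the test. Their median log2 fold change was -0.13, against -0.01 over all tested genes, and 64 of 76 lay below 0. For transcripts of up to 750 bases the median was -0.14 over 41 subunits and -0.05 over all 910 genes. From there up to 1500 bases it was -0.13 over 20 subunits and -0.035 over 2188 genes. Over 1500 and up to 3000 bases it was -0.05 over 15 subunits and -0.001 over 4909 genes. The part of transcript length was not tested. Both Treg KO libraries were below both Treg WT libraries for 50 of 76, against 25.9% of all tested genes, and above them for 2 of 76, against 22.8%. None of the 76 was called, 16 had an unadjusted p under 0.05, and the smallest adjusted p was 0.22 (limma). The authors' deposited table called none of them either. In Teff the median was -0.03, against -0.02 over all tested genes, with 42 of 76 below 0. Teff KO libraries were below Teff WT libraries without overlap for 18 of 76, against 27.4% of all tested genes, and above for 12 of 76, against 22.4%. The smallest adjusted p in Teff was 0.21, with 6 of 76 at an unadjusted p under 0.05.

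By complex, the median log2 fold change of nuclear subunits in Treg, KO over WT, was -0.10 for complex I, -0.10 for complex II, -0.15 for complex III, -0.14 for complex IV and -0.16 for complex V. In Teff the same medians were -0.01, 0.00, -0.06, -0.05 and -0.01. All 5 complexes thus lay below 0 in Treg, by amounts of similar size.

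Among the nuclear subunits of complex I the largest difference in Treg was in Ndufv2, a subunit of the NADH-oxidising tip, with 655 and 754 in Treg KO against 966 and 855 in Treg WT (log2 fold change -0.37, SE 0.12, limma adjusted p = 0.22). Its partner in the tip, Ndufv1, lay the other way without overlap, at 726 and 708 in Treg KO against 615 and 599 in Treg WT. That difference was 0.24 on the log2 scale (SE 0.08, limma adjusted p = 0.23). In complex II, the iron-sulfur subunit Sdhb had 1138 and 1086 in Treg KO against 1318 and 1278 in Treg WT, and 1127 and 1163 in Teff KO against 1236 and 1380 in Teff WT. Sdhb was lower without overlap in both cell types and did not pass the test (limma adjusted p = 0.25 and 0.22).

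In complex III, Uqcrb, a small matrix-side subunit, had 669 and 675 in Treg KO against 849 and 850 in Treg WT, and 749 and 718 in Teff KO against 787 and 1004 in Teff WT. Its log2 fold changes were -0.34 and -0.28 (SE 0.12 each, limma adjusted p = 0.24 and 0.23). The core protein gene Uqcrc1 differed by 0.00 in Treg and -0.08 in Teff. In complex IV, Cox6b1, at the intermembrane side, was lower without overlap in both cell types, by 0.18 and 0.16 (SE 0.06 each, limma adjusted p = 0.27 and 0.22). The muscle isoform Cox6a2 had 36.4 and 23.6 in Treg KO against 51.0 and 52.0 in Treg WT, at values near the minimum. In complex V, Atp5c1, the central stalk of the ATP synthase, had 2550 and 2564 in Treg KO against 2880 and 2886 in Treg WT (log2 fold change -0.17, SE 0.06, limma adjusted p = 0.22). Atp5b, next to it in the enzyme, had 9760 and 9681 in Treg KO against 9920 and 10216 in Treg WT, a log2 fold change of -0.05. The 3 genes of the same ring subunit, Atp5g1, Atp5g2 and Atp5g3, differed by -0.10, -0.22 and -0.20 in Treg and by 0.27, 0.08 and -0.03 in Teff, with none called.

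The cycling markers moved with genotype as well. Mki67, Top2a, Rrm2 and Ccnb1 summed to between 2790 and 2829 in Treg KO against 3997 to 4166 in Treg WT. In Teff KO they summed to between 1490 and 1699 against 3596 to 3790 in Teff WT. The 4 myeloid markers found in the table summed to between 2942 and 3038 in Treg KO against 4872 to 4998 in Treg WT. The sum of B cell markers ran the other way, at 470 to 476 in Treg KO against 322 to 346 in Treg WT. That gap lay in Pax5, at 178.2 and 161.6 in Treg KO against 5.74 and 2.871 in Treg WT. Cd79b was lower in Treg KO, at 185.9 and 223.6 against 230.1 and 253 in Treg WT. The part of any of these in the difference of nuclear subunits was not tested.

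**Figure D3:**
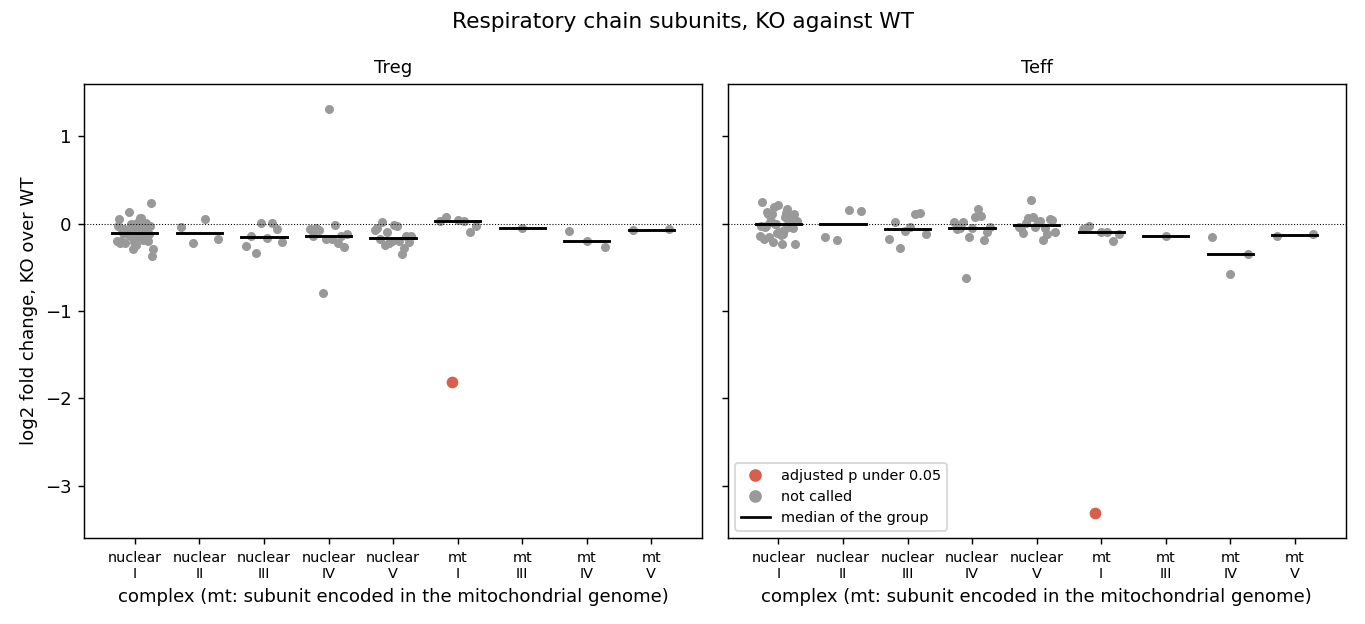
Log2 fold change of each subunit gene, KO over WT, in Treg (left) and Teff (right), by complex and encoding genome, with the median of each group as a line and genes at adjusted p under 0.05 in red. The nuclear medians lie between -0.16 and -0.10 in Treg and between -0.06 and 0.00 in Teff, and ND3 is the lowest point in both.

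Ndufa12-ps, annotated as the copy Gm15920 of the complex I accessory gene Ndufa12, had 139 and 160 in Teff KO against 270 and 247 in Teff WT. The log2 fold change was -0.79 (SE 0.16, limma adjusted p = 0.033), and the call was lost in 10 of 18 alternative analyses. In Treg it had 141 and 164 in Treg KO against 207 and 246 in Treg WT, without overlap, at -0.57 (SE 0.16, limma adjusted p = 0.17). Ndufa12 itself had 460 and 477 in Teff KO against 375 and 413 in Teff WT, higher without overlap, at 0.25 (SE 0.10, limma adjusted p = 0.22). The copy, at chr5:130188395-130188796 on the plus strand, is 402 bases long and 99.5% identical to the Ndufa12 transcript (gene at chr10:94198720-94221443 on the plus strand, GRCm38). The 2 differences are A99G and T378C, with the base of Ndufa12 first and positions counted from 1 at the start of the copy, and 78.8% of the 50-base windows of the copy are shared. The last 60 bases of the copy are shown with the same stretch of Ndufa12 from GENCODE, with the position of T378C in capitals.
Ndufa12-ps: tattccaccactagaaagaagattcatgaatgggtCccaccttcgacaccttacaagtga
Ndufa12: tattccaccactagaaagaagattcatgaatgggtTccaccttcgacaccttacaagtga
Gene and copy summed had 599 and 637 in Teff KO against 645 and 660 in Teff WT, and 580.5 and 591 in Treg KO against 645 and 646 in Treg WT. The sums did not overlap in either cell type, with a smaller difference than in the copy alone.

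The difference of the KO effects, Treg minus Teff, was then tested directly. None of the 98 members was called in it, where 0.0225% of all tested genes were called, and 6 members had an unadjusted p under 0.05. For ND3 the difference was 1.5 on the log2 scale (SE 0.45, limma adjusted p = 0.32). For nuclear subunits the median difference was -0.09, against 0.02 over all tested genes, and for mitochondrial genes it was 0.09. The lower nuclear values in Treg KO are therefore not shown to differ from the effect in Teff for any member. The KO comparisons in Treg and Teff share no libraries.

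Beyond the members, lists of mitochondrial genes were followed in the same fit. Of 18 genes of the citric acid cycle, 39 assembly factors of other names, 32 genes of mitochondrial genome expression, 11 regulators of mitochondrial biogenesis, 17 genes of coenzyme Q synthesis and mobile carriers, 6 inhibitors and carriers and 18 import genes, none was called in Treg between KO and WT. In Teff the only one called was Ucp2, a carrier of the inner membrane. Of all tested genes, 1.45% were called in Treg and 6.92% in Teff. Ucp2 had 15005 and 12661 in Teff KO against 17878 and 18196 in Teff WT, a log2 fold change of -0.39 (SE 0.08, limma adjusted p = 0.029). In Treg it had 18491 and 18460 in Treg KO against 20639 and 21710 in Treg WT, at -0.20 (limma adjusted p = 0.30).

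Cell types differed more than genotypes. In Treg KO against Teff KO, 25 of 98 members were lower and 1 was higher, where 26.9% of all tested genes were called, 11.2% lower and 15.7% higher. In Treg WT against Teff WT, 14 of 98 were lower and none was higher, where 25.1% of all tested genes were called, 11.6% lower and 13.5% higher. The lower calls included 21 of 76 nuclear subunits in KO and 9 of 76 in WT, and 3 and 5 of 13 mitochondrial genes. The 9 nuclear subunits called in WT were all among the 21 called in KO. The share of nuclear subunits lower in WT was near the background, and in KO it was above it. Both Treg KO libraries were below both Teff KO libraries for 54 of 76 nuclear subunits, against 32.1% of all tested genes, and both Treg WT libraries below both Teff WT libraries for 41 of 76, against 31.5%. The median log2 fold change of nuclear subunits, Treg over Teff, was -0.24 in KO and -0.15 in WT, against 0.00 over all tested genes in both. For mitochondrial genes it was -0.11 in KO and -0.32 in WT.

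**Figure D4:**
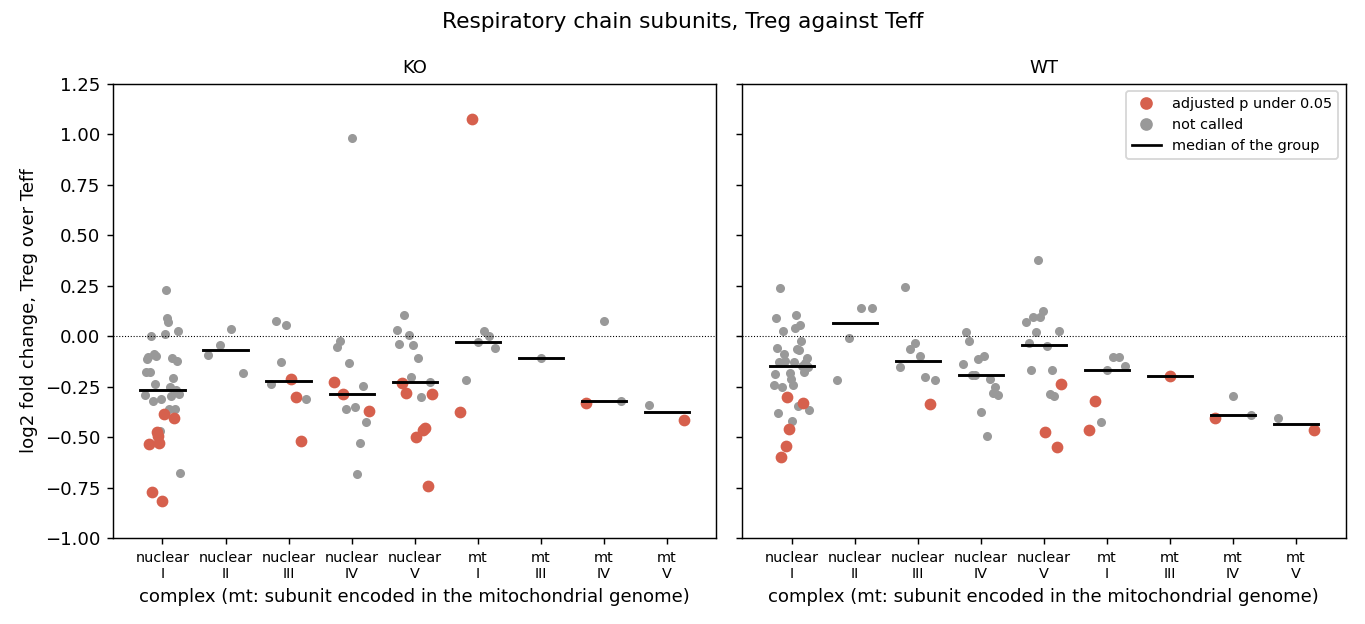
Log2 fold change of each subunit gene, Treg over Teff, in KO (left) and WT (right), by complex and encoding genome, with the median of each group as a line and genes at adjusted p under 0.05 in red. Called genes lie below 0 except ND3 in KO at 1.07, and no complex II gene was called.

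In complex I, 8 of 35 nuclear subunits (22.9%) were lower in KO and 5 of 35 (14.3%) in WT. Of all tested genes, 11.2% were lower in KO and 11.6% in WT, so the share in WT was near the background. Ndufa6, an accessory subunit of the LYR family on the matrix arm (chr15:82350140-82354322 on the minus strand, GRCm38), had 916 and 962 in Treg KO against 1725 and 1485 in Teff KO, and 1010 and 949 in Treg WT against 1367 and 1604 in Teff WT. The groups did not overlap in either genotype. Its log2 fold changes were -0.77 in KO and -0.60 in WT (SE 0.11 each, limma adjusted p = 0.0018 and 0.0064), and the call held in all 18 alternatives in both. Ndufb10, of the membrane arm, had 658 and 626 in Treg KO against 899 and 910 in Teff KO, and 659 and 627 in Treg WT against 780 and 801 in Teff WT (log2 fold change -0.49 and -0.30, limma adjusted p = 0.0031 and 0.029). Its call held in all 18 alternatives in KO and was lost in 6 of 18 in WT. Ndufb11, also of the membrane arm, had 1313 and 1259 in Treg KO against 1975 and 1746 in Teff KO, and 1350 and 1361 in Treg WT against 1686 and 2063 in Teff WT. Its log2 fold changes were -0.53 and -0.46 (SE 0.11 each), and the call was lost in 2 of 18 alternatives in KO and 4 of 18 in WT.

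Ndufs4, an accessory subunit whose loss causes Leigh-like disease in mice, was lower by 0.40 in KO and 0.33 in WT (limma adjusted p = 0.022 and 0.049). Its call was lost in 4 of 18 alternatives in KO and in 14 of 18 in WT, where the adjusted p reached 0.19. Ndufb1 was lower in both genotypes too, by 0.48 and 0.54, with the call lost in 8 and 3 of 18 alternatives, but its identifier is annotated as the non-coding Ndufb1-ps. Ndufa2, Ndufb4 and Ndufb5 were called in KO and not in WT, and the difference between the genotypes was not called for any of them. For Ndufb4 all 50-base windows of its copy Ndufb4c are shared with it, so that its own value is uncertain. Gene and copy summed had 408.5 and 394 in Treg KO against 644 and 540 in Teff KO. The 6 core nuclear subunits of complex I analysed here, which form the catalytic part of the peripheral arm, included no call in either genotype. Their median was -0.17 in KO and -0.13 in WT, against -0.29 and -0.18 for the 29 other nuclear subunits. Of the 7 assembly factors, Ndufaf4 alone was called, with 362 and 356 in Treg KO against 542 and 495 in Teff KO (log2 fold change -0.53, SE 0.13, limma adjusted p = 0.024), a call lost in 4 of 18 alternatives.

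In complex II, none of the 4 subunits was called, where 26.9% of all tested genes were called in KO and 25.1% in WT. The flavoprotein gene Sdha had 2703 and 3173 in Treg KO against 2822 and 3467 in Teff KO, and 3116 and 2890 in Treg WT against 3600 and 3376 in Teff WT. Its log2 fold changes were -0.10 (SE 0.12, limma adjusted p = 0.60) and -0.22 (SE 0.12, limma adjusted p = 0.23). Sdhb differed by -0.04 and -0.01.

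In complex III, 3 of 8 nuclear subunits (37.5%) were lower in KO and 1 of 8 (12.5%) in WT. Of all tested genes, 11.2% were lower in KO and 11.6% in WT, so the share in WT was near the background. Uqcrh (chr4:116066965-116075071 on the minus strand, GRCm38) had 1823 and 1747 in Treg KO against 2588 and 2524 in Teff KO, and 1917 and 1806 in Treg WT against 2200 and 2507 in Teff WT. Its log2 fold changes were -0.52 and -0.34 (SE 0.08 each, limma adjusted p = 0.0025 and 0.019), and the call held in all 18 alternatives in KO and was lost in 5 of 18 in WT. The Rieske iron-sulfur protein Uqcrfs1 had 888 and 880 in Treg KO against 1118 and 1065 in Teff KO (-0.30, limma adjusted p = 0.026) and the core protein Uqcrc2 2096 and 2007 against 2423 and 2325 (-0.21, limma adjusted p = 0.041). The call of Uqcrfs1 was lost in 7 of 18 alternatives and that of Uqcrc2 in 12 of 18, where the adjusted p reached 0.19. Uqcrc1 overlapped between Treg and Teff in both genotypes, with log2 fold changes of 0.06 in KO and -0.03 in WT.

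In complex IV, 3 of 13 nuclear subunits (23.1%) were lower in KO and none in WT, against 11.2% and 11.6% of all tested genes. Cox6a1 had 1747 and 1760 in Treg KO against 2190 and 2093 in Teff KO (-0.29, SE 0.06, limma adjusted p = 0.015), Ndufa4 had 901 and 911 against 1220 and 1124 (-0.37, SE 0.09, limma adjusted p = 0.021), and Cox4i1 had 2919 and 2733 against 3434 and 3170 (-0.22, SE 0.06, limma adjusted p = 0.037). The call of Cox4i1 was lost in 12 of 18 alternatives, where the adjusted p reached 0.19, and those of Cox6a1 and Ndufa4 in 3 of 18 each. Ndufa4 was first assigned to complex I and is a subunit of complex IV. In WT these genes lay at -0.19, -0.29 and -0.14, with limma adjusted p of 0.068, 0.055 and 0.16. Cox5a and Cox5b, by contrast, differed by -0.05 and -0.02 in KO and by 0.02 and -0.03 in WT.

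In complex V, 7 of 16 nuclear subunits (43.8%) were lower in KO and 3 of 16 (18.8%) in WT. Of all tested genes, 11.2% were lower in KO and 11.6% in WT. Atp5h, the d subunit of the peripheral stalk (chr11:115415689-115419962 on the minus strand, GRCm38), had 1708 and 1606 in Treg KO against 2389 and 2296 in Teff KO, and 1710 and 1652 in Treg WT against 2321 and 2344 in Teff WT. Its log2 fold changes were -0.50 and -0.47 (SE 0.06 each, limma adjusted p = 0.0010 and 0.0016), and the call held in all 18 alternatives in both, although 50.5% of its windows are shared with other transcripts, chiefly the copy Gm10250. Atp5mpl, a small protein bound to the membrane part, had 399 and 429 in Treg KO against 764 and 625 in Teff KO, and 470 and 443 in Treg WT against 611 and 728 in Teff WT (log2 fold change -0.74 and -0.55, SE 0.13 each). Its call held in all 18 alternatives in KO and was lost in 3 of 18 in WT. Atp5pb, the b subunit of the peripheral stalk, was lower by 0.29 and 0.23, with the call lost in 4 and 9 of 18 alternatives. The genes of the catalytic head lay near 0. Atp5b had 9760 and 9681 in Treg KO against 10148 and 9786 in Teff KO, and 9920 and 10216 in Treg WT against 10380 and 10205 in Teff WT. It was lower in Treg KO without overlap, and in WT the groups overlapped. Atp5a1, the alpha subunit, had 8096 and 8171 in Treg KO against 8004 and 7926 in Teff KO, and 8717 and 8469 in Treg WT against 8175 and 8205 in Teff WT. Atp5a1 was thus higher in Treg without overlap in both genotypes. Neither gene was called. Of the 5 head and central stalk genes, Atp5c1 (-0.23) and Atp5e (-0.28) were called in KO and none in WT. These calls were lost in 7 and 12 of 18 alternatives, and the difference between the genotypes was not called. Of the 11 others, 5 were called in KO and 3 in WT. Across the complexes, each nuclear call named here as lost in KO was lost when at least 1 of the Treg KO and Teff KO libraries was left out. Each one lost in WT was lost both without Treg WT replicate 2 and without Teff WT replicate 2.

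Among mitochondrial genes, ND1, COX1 and ATP8 were lower in Treg in both genotypes. None of these calls survived quantile normalization, which sets values of genes with equal rank equal. It could therefore not show a difference for COX1, which came out at 0.00 in both genotypes. ND1 had 83732 and 82482 in Treg KO against 106344 and 108877 in Teff KO, and 80923 and 82302 in Treg WT against 102384 and 124158 in Teff WT (log2 fold change -0.37 and -0.47, SE 0.08 each, limma adjusted p = 0.013 and 0.0051). COX1 had 296596 and 294963 in Treg KO against 374732 and 368470 in Teff KO, and 308242 and 317033 in Treg WT against 376639 and 455157 in Teff WT (-0.33 and -0.41, limma adjusted p = 0.019 and 0.0083). ATP8, of the membrane part of complex V, had 37064 and 40551 in Treg KO against 51051 and 52157 in Teff KO, and 41976 and 39102 in Treg WT against 50128 and 62363 in Teff WT (-0.41 and -0.46). ND2 (-0.32) and CYTB (-0.20) were called in WT, with limma adjusted p of 0.028 and 0.049. ND4 and ND6 lay at -0.03 and -0.06 in KO and at -0.16 and -0.14 in WT, with none called. The differences were thus uneven along one genome. Under quantile normalization the log2 fold changes in KO were -0.12 for ND1, 0.00 for COX1 and -0.024 for ATP8. In WT they were -0.12 for ND1, 0.00 for COX1, -0.22 for ATP8, -0.24 for ND2 and 0.069 for CYTB, with none called (limma adjusted p between 0.15 and 1). ND3 was higher in Treg KO, at 239 and 179 against 119 and 80.3 in Teff KO (log2 fold change 1.07, SE 0.32, limma adjusted p = 0.043), and overlapped between Treg WT and Teff WT. That call was lost in 8 of 18 alternatives, quantile normalization among them.

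Of the nuclear subunits lower in Treg, 13 of 21 in KO and 6 of 9 in WT had transcripts of up to 750 bases. So did 41 of all 76 nuclear subunits. Short transcripts as a class were lower in Treg. Among all 910 tested genes with transcripts of up to 750 bases, the median log2 fold change, Treg over Teff, was -0.27 in KO and -0.20 in WT, and 18% and 17.1% were called lower. The 41 nuclear subunits of that length had medians of -0.30 and -0.19, with 13 (31.7%) and 6 (14.6%) called lower. Among 2188 genes of over 750 and up to 1500 bases the medians were -0.06 and -0.04, and the 20 nuclear subunits of that length had medians of -0.22 and -0.14. Among 4909 genes of over 1500 and up to 3000 bases the medians were 0.01 in both genotypes, and the 15 nuclear subunits had medians of -0.10 in both. Up to 750 bases the medians of nuclear subunits thus lay near those of all genes of their length, while the share called lower was above that of all such genes in KO and below it in WT. Above that length the medians of nuclear subunits lay lower. Spearman's rho between length and log2 fold change over the 76 nuclear subunits was 0.32 in KO and 0.31 in WT, and over all tested genes 0.14 and 0.09, a description across genes of the same libraries.

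**Figure D5:**
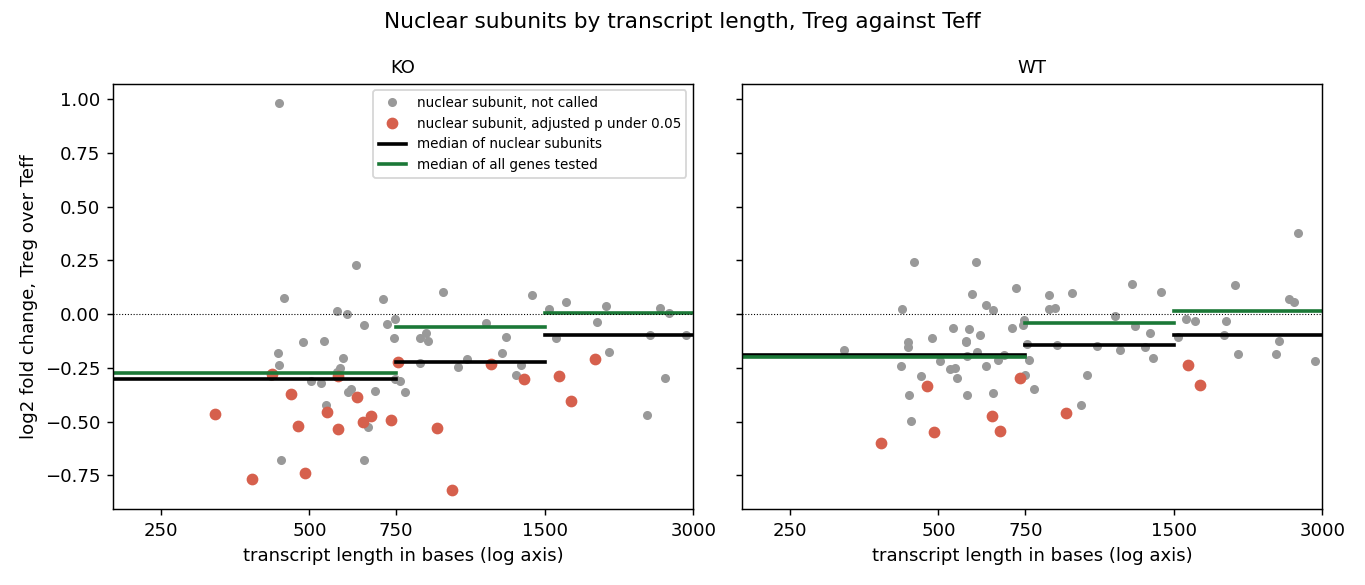
Log2 fold change of the 76 nuclear subunits, Treg over Teff, in KO (left) and WT (right), against transcript length (log axis), with medians per length class of nuclear subunits in black and of all tested genes in green. Up to 750 bases the lines lie together, at -0.30 and -0.27 in KO and at -0.19 and -0.20 in WT.

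Markers of other cells also moved with the sort. The 4 myeloid markers in the table summed to between 2942 and 3038 in Treg KO against 463 to 533 in Teff KO, and to between 4872 and 4998 in Treg WT against 834 to 986 in Teff WT. The dendritic markers, 3 of 4 in the table, ran the other way, at 33.3 to 42.0 in Treg KO against 332 to 664 in Teff KO, and at 53.0 to 92.0 in Treg WT against 817 to 1438 in Teff WT. The NK markers also lay lower in Treg, at 35 to 37.3 in Treg KO against 307 to 376 in Teff KO, and at 20.97 to 42.8 in Treg WT against 475.5 to 608 in Teff WT. Erythroid markers, 3 of 4 in the table, summed to 359 to 388 in Treg KO against 44.8 to 47.7 in Teff KO, and to 393 to 515 in Treg WT against 58.8 to 90.9 in Teff WT. B cell markers summed to 470 to 476 in Treg KO against 85.5 to 245 in Teff KO. In WT they summed to 322 to 346 in Treg WT against 116 in both Teff WT libraries. The wide range in Teff KO lay in Pax5, at 9.057 and 167.9. In WT the gap lay mostly in Cd79b, at 230.1 and 253 in Treg WT against 33.62 and 33.75 in Teff WT. Pax5 was lower in Treg WT, at 5.74 and 2.871 against 12.64 and 17.71 in Teff WT. Of the myeloid markers, Itgam was lower in Treg WT, at 77.34 and 27.95 against 186.3 and 330.2 in Teff WT. In KO the values of Itgam overlapped between Treg and Teff. Cycling markers summed to between 2790 and 2829 in Treg KO against 1490 to 1699 in Teff KO, and to between 3997 and 4166 in Treg WT against 3596 to 3790 in Teff WT. In WT that gap lay in Mki67, at 2568 and 2338 in Treg WT against 2109 and 2150 in Teff WT. Values of Top2a, Rrm2 and Ccnb1 overlapped between Treg WT and Teff WT. The part of these, and of transcript length, in the lower subunit values was not tested.

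The promoters of the nuclear subunits were searched for the sites of factors known to act at respiratory genes, NRF1 (GCGCANGCG), ETS factors such as GABP (CCGGAAG) and YY1 (AANATGGCG), on both strands. None of the 3 motifs contains another. The windows ran from 250 bases before to 50 bases after the start (RefSeq, GRCm38.p6), and 63 of 76 nuclear subunits had one. NRF1 letters were in 30.2% of these 63, against 7.03% of all 27025 genes with a promoter, and with one more C at the end of the motif in 25.4% against 5.19%. ETS letters were in 22.2% against 9.93%, and YY1 letters in 15.9% against 2.76%. The 27025 genes include genes not tested here, whereas all 63 subunits had reached the minimum value. The comparison is thus with an unlike set of genes. Of the 17 nuclear subunits with a promoter that were lower in Treg in either genotype, 8 held NRF1 letters and 6 ETS letters, against 11 and 8 of the 46 that were not called. The NRF1 letters with the further C were in 6 of the 17 and in 10 of the 46. YY1 letters were in 2 of the 17 and in 8 of the 46. A match shows that the letters are present and nothing of binding.

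The promoters below belong to the nuclear subunits of complexes I, III and V with the smallest p among those lower in both genotypes, and to Atp5b, which was not called in either genotype. Capitals mark the motif letters, with the start of transcription after base 250, read 5′ to 3′ on the strand of the gene. Ndufa6 (chr15:82354242-82354541, minus strand) holds an NRF1 match, Uqcrh (chr4:116075021-116075320, minus strand) an ETS match, Atp5h (chr11:115419870-115420169, minus strand) one of each, and Atp5b (chr10:128083057-128083356, plus strand) a YY1 match.
Ndufa6: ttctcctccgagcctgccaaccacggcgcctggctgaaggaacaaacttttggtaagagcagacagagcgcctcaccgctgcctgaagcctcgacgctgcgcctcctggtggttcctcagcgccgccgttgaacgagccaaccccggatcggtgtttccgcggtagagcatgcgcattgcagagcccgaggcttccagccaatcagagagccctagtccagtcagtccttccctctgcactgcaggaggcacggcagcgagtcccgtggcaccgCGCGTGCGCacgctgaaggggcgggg
Uqcrh: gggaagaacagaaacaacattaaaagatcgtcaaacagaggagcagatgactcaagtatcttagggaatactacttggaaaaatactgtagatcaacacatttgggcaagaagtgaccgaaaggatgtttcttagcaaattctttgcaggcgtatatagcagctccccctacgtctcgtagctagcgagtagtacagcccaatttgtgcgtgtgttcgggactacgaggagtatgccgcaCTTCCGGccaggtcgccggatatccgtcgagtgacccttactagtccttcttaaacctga
Atp5h: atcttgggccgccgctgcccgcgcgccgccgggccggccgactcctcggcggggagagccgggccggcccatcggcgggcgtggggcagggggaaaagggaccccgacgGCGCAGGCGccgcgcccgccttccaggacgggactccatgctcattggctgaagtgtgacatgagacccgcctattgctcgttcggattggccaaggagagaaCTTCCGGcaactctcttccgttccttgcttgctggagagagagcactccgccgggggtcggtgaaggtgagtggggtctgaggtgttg
Atp5b: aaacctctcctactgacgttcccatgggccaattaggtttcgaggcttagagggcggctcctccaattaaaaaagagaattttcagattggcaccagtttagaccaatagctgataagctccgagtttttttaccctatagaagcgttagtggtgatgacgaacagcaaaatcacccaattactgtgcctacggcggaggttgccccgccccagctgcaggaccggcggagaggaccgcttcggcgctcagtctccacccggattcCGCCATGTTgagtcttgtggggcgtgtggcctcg

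Regulators of these genes did not all lie on the same side. Of 11 regulators of biogenesis, 2 were higher and 2 lower in KO (36.4% called), and 2 higher and 1 lower in WT (27.3% called). Of all tested genes, 26.9% were called in KO and 25.1% in WT. Myc, a driver of cell growth, had 3306 and 3426 in Treg KO against 2210 and 2273 in Teff KO, and 3177 and 3338 in Treg WT against 1942 and 1876 in Teff WT (log2 fold change 0.59 and 0.77, limma adjusted p = 0.00034 and 0.00014). Gabpb1, the beta chain of the ETS factor GABP, had 1274 and 1336 in Treg KO against 781 and 732 in Teff KO, and 1255 and 1310 in Treg WT against 767 and 872 in Teff WT (0.79 and 0.65). The coactivator gene Ppargc1b was lower, by 0.49 and 0.41. In the list of mitochondrial genome expression, Trmt10c, part of mitochondrial RNase P, had 329 and 330 in Treg KO against 501 and 522 in Teff KO, and 272 and 288 in Treg WT against 405 and 460 in Teff WT (-0.63 and -0.62, limma adjusted p = 0.0045 and 0.0053). Polrmt, the mitochondrial RNA polymerase, was lower in WT (-0.56, limma adjusted p = 0.039). In that list 1 gene was higher and 2 lower in KO, and 2 were lower in WT, of 32. These shares, 9.38% and 6.25%, were below those of all tested genes. The higher gene was Mtpap, with 197 and 74.7 in Treg KO against 0 in both Teff KO libraries. Mtpap also had 0 in both Treg WT libraries and 186 and 0 in Teff WT. Its call therefore turns on libraries with a value of 0.

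Of 39 assembly factors of other names, 2 were higher and 4 lower in each genotype. That was 15.4% called, below the 26.9% of all tested genes called in KO and 25.1% in WT. Sdhaf1, which helps insert the iron-sulfur clusters of complex II, had 1278 and 1378 in Treg KO against 538 and 471 in Teff KO, and 1619 and 1628 in Treg WT against 611 and 660 in Teff WT (log2 fold change 1.40 and 1.35, SE 0.09 each, limma adjusted p = 6.2e-05 and 9.3e-05). Cox16, an assembly factor of complex IV, was lower by 0.73 and 0.75, and Tmem186, of complex I assembly, by 0.78 and 0.73. Atpif1, the inhibitor of the ATP synthase, had 529 and 524 in Treg KO against 347 and 320 in Teff KO, and 629 and 595 in Treg WT against 400 and 395 in Teff WT (0.66 and 0.62, limma adjusted p = 0.0019 and 0.0028). Of 18 genes of the citric acid cycle, 2 (11.1%) were lower in each genotype, near the 11.2% of all tested genes lower in KO and 11.6% in WT. Among them Idh2, the mitochondrial NADP-linked isocitrate dehydrogenase, was lower by 1.05 in KO and 0.98 in WT. Etfb, an electron carrier of fatty acid oxidation, was higher by 0.57 and 0.65. Of 18 import genes, 4 (22.2%) were lower in KO and 1 (5.56%) in WT, against 11.2% and 11.6% of all tested genes. Tomm20 was the one in WT (-0.40, limma adjusted p = 0.019).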

How the data were processed

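Poly(A) libraries of sorted splenic T cells were read as single-end 50-base reads, per the labels' protocols. Per the submitters' processing notes, build mm10 was used with DESeq2 1.28.1 under R 4.0.3, with Salmon 0.14.1 and with Trim Galore 0.4.4. The authors deposited 1 table of normalized expression signal per gene and library, with a scaling not given in the sources used here, together with log2 fold changes of KO over WT and adjusted p-values. Read depth is unknown, so no count test was run. Here, limma 3.58.1 (trend and robust shrinkage, R 4.3.3) was fitted to log2(value + 1) of all 13358 genes with at least 10 in at least 2 libraries. One coefficient per group was used over all 8 libraries, leaving 4 residual degrees of freedom. p-values were Benjamini-Hochberg adjusted over all genes, and a gene was called at adjusted p below 0.05. Fold changes on this scale understate changes of low genes. The fit was checked on simulated data. Transcript lengths (median of basic coding transcripts), positions and shared 50-base windows came from GENCODE M21 (GRCm38), and promoters from RefSeq (GRCm38.p6). Salmon divides reads among similar transcripts, so values of genes with copies are uncertain. Genes named in full were all mitochondrial members, up to 3 per complex and comparison with the smallest p, every member called between KO and WT, and tissue isoforms, with up to 3 per other list. Others were chosen after their values were seen. Members and lists were chosen with earlier results of these data known. Nothing in the labels pairs replicates of different groups. Alternatives covered pseudocount, filter, scaling, variance model, groups fitted, the replicate number as a block, shared windows and each library left out.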

Additional observations from a re-analysis of the deposited data

How the results depend on the processing

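Medians of nuclear subunits in Treg, KO over WT, stayed below 0 in every alternative run, between -0.14 and -0.10. All alternatives run kept 0 members called in the difference of the KO effects. Counts of members called in this section are given without the share of all tested genes called under the same alternative. A change in such a count is therefore not shown to be particular to the respiratory chain. Without trend and robust shrinkage, 0 members were called in KO against WT in Treg, 16 in Treg against Teff in KO and 6 in WT. With the replicate block, 0 were called in KO against WT in Treg, 2 in Teff, 22 in Treg against Teff in KO and 14 in WT; same-numbered libraries did not deviate together, with correlations between -0.04 and 0.06. Fitting only the groups compared gave 1 call in KO against WT in Teff and 9 in Treg against Teff in WT. Quantile normalization gave 1 call in KO against WT in Teff, a mitochondrial median of -0.12 in Treg against Teff in WT, and no direction for COX1 (0.00 in KO and 0.00 in WT) or the opposite one for CYTB (0.069 in WT); it sets values of genes with equal rank equal. With library totals made equal the nuclear medians of Treg against Teff were -0.16 in KO and -0.092 in WT, and with totals of genes other than mitochondrial ones made equal -0.17 in KO, while the median of all genes moved by at most 0.08 under any scaling. Only among members with under 10% of windows shared, an alternative chosen after seeing the data, 0 members were called in KO against WT in Treg and in Teff, 14 in Treg against Teff in KO and 9 in WT, from fewer genes tested.

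Leaving out 1 library at a time gave 0 to 1 calls in KO against WT in Treg, 1 to 3 in Teff, 7 to 29 in Treg against Teff in KO and 4 to 18 in WT. Fewer calls followed most of all from leaving out a library of the groups compared: 7 without Treg KO replicate 1, 8 without Treg KO replicate 2 and 11 without Teff KO replicate 1 in KO, and 5 without Treg WT replicate 1, 4 without Treg WT replicate 2 and 6 without Teff WT replicate 2 in WT. The nuclear median then lay between -0.15 and -0.094 in Treg against Teff in WT and between -0.16 and -0.0485 in the difference of the KO effects, where it was lowest without Teff WT replicate 2. The mitochondrial median of Treg against Teff in WT lay between -0.54 without Teff WT replicate 1 and -0.15 without Teff WT replicate 2.

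The log2 ratio of the mitochondrial over the nuclear sum differed by -0.13 between KO and WT in Teff and by -0.23 between Treg and Teff in WT. Leaving out a Teff WT library, an alternative chosen after seeing the data, gave -0.25 to -0.0071 for the first and -0.36 to -0.11 for the second. With medians over genes in place of sums the differences were 0.027 in Teff KO against Teff WT, 0.13 in Treg KO against Teff KO and 0.054 in Treg WT against Teff WT, so the direction of this balance depended on the summary. In groups of 2 libraries with unknown read depth, a difference that missed the threshold was not detectable here and is not shown to be absent. Where a cause is not named above, the cause was not tested.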
